A study of Danio rerio with 10 samples.

Results

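The transcriptome of adult male zebrafish held for 96 hours in water with 17β-estradiol (E2) was compared with that of males held for the same time in vehicle alone. All 3 E2 arrays and all 4 control arrays of a 10-array series were taken, 1 fish per array, and 16267 of the 16416 probes, those with at least 2 values in each group, were compared. Control fish were kept in 0.01% ethanol, the solvent, and E2 fish in the same amount of ethanol with 10 nM E2 according to the methods, where the sample titles give 10 mM. The other 3 arrays are from fish given E2 with the estrogen receptor antagonist ICI and entered the fit only to estimate the spread. Each SE given below is that of this fit, with a spread estimated over all 10 arrays, and not that of the compared groups alone. RNA of a whole fish labelled with Cy3 was hybridized against a common reference RNA labelled with Cy5, which the methods describe as equal parts of male and female pooled liver RNA. Levels are given as log2 of the fish signal over the reference signal, so that a negative level is below the reference, and a difference is the mean level in E2 minus that in control fish. The methods name 4 replicates for each treatment and a selection of good arrays by scatter plots, after which 3 E2 arrays were kept. Strain, age and weight are not given in the sources used here. The whole body of each fish was homogenized, so that no value can be assigned to an organ.

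Estradiol enters cells and binds estrogen receptors, which are transcription factors that attach to DNA and recruit coactivators or corepressors. In female fish it rises during yolk formation, and liver answers it with the yolk precursor vitellogenin and, in many species, with egg envelope proteins. Males carry the same receptors and normally make little vitellogenin, so that its transcript in a male is a widely used sign of exposure to estrogen. Estrogens also drive division of cells in several vertebrate tissues and change the plasma proteins that liver secretes.

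The known markers of estrogen exposure stood apart on every array. For vtg3, a vitellogenin, the level was -6.71, -5.64, -6.47 and -6.96 in control replicates 1 to 4 and 0.77, 0.86 and 2.01 in E2 replicates 1 to 3. Every E2 fish was above every control fish, and the difference was log2 7.66 (SE 0.35, 202-fold, adjusted p = 3.18e-07, limma). For esr1, the estrogen receptor alpha gene, the control levels were -1.50, -1.33, -0.84 and -0.43 and the E2 levels 1.39, 0.54 and 1.25. The groups did not overlap, with a rise of log2 2.09 (SE 0.32, 4.25-fold, adjusted p = 0.000511). Of the vitellogenin genes, vtg3 was the only symbol in the annotation used here. Here and below, adjusted p is the p-value of limma's moderated test, adjusted by Benjamini-Hochberg across the tested probes, a probe is called at an adjusted p under 0.05, and "rose" and "fell" are used only of called probes.

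The arrays of the groups differed in more than single genes. Within an array, levels had an SD across probes of 0.80 to 1.07 in control and 0.46 to 0.51 in E2 fish, largest in control replicate 4. Across probes, which are not independent replicates, Pearson's r was 0.676 to 0.898 between control arrays, 0.703 to 0.818 between E2 arrays and -0.0838 to 0.1436 between a control and an E2 array. From 196 to 305 probes of a control array and from 314 to 620 of an E2 array had no value. The array carries 172 spots of actb2, a cytoplasmic actin, of which 0 rose and 33 fell, with a median difference of -0.22. Over all probes tested 19.1% rose and 16.4% fell, and the actb2 spots are repeats for a single gene. The median of these spots was -0.17 to -0.30 on the control arrays, -0.36 and -0.35 on E2 replicates 1 and 2 and -0.71 on E2 replicate 3, and their SD was 0.11 to 0.12 in control and 0.19 to 0.33 in E2 fish. The sources used here name no hybridization batch, so that a batch and the treatment cannot be told apart.

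Markers of cell types were read next, since the fish are labelled male and the reference is described as liver. The 4 oocyte markers tested, zp3, zp3b, zar1 and cpeb1b, had a median level of -5.15 in control and 0.27 in E2 fish, and all 4 rose. In each E2 fish they were near the level of the mixed-sex liver reference (median 0.15 to 0.41), although neither male fish nor liver is a usual source of zar1 and cpeb1b. The median of the 9 muscle markers tested was below the reference on every array, at -1.53 to -0.29 in control and -0.39 to -0.25 in E2 fish, although liver holds little skeletal muscle RNA and a whole fish much. Of the 3 probes of testis and germ line markers (ddx4 by 2 probes and spata4), 3 rose, from a median of -1.46 to 0.27. Liver markers had a median of 0.18 in control and -1.26 in E2 fish, and 5 of their 8 probes fell while 1 rose. Whether the E2 fish held ovarian tissue and whether the reference held other tissues was not tested. In whole-fish RNA, fewer cells of a type and less RNA per cell cannot be told apart.

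Of the 16267 probes, 5777 were called (35.5%), 3104 higher (19.1%) and 2673 lower (16.4%) in E2 fish. Without regard to the adjustment, 7318 had a p under 0.05. The groups did not overlap for 6998 probes (43.0%), with all E2 arrays above all control arrays for 3579 (22.0%) and below for 3419 (21.0%). The called rises were the larger changes: their median was 2.07-fold and the largest 249-fold, and 504 of them passed log2 2. The called falls had a median of 1.76-fold and a largest value of 14.7-fold, and 43 passed log2 2. A single gene symbol was annotated for 1385 of the probes that rose (1297 genes) and for 1030 of those that fell (965 genes). The study's own lists of up- and down-regulated genes, which were chosen on these arrays, hold 716 of the called rises and 369 of the called falls. Outside those lists 2388 probes rose, 936 of them at least 2-fold, and 2304 fell, 436 of them at least 2-fold. With quality weights for arrays 4312 probes were called lower, and without E2 replicate 3 this was 1776.

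Set against the reference, most of what rose in E2 fish had been below it in control fish. The control mean was below 0 for 99.0% of the probes that rose, with a median of -0.85, and the E2 mean of these probes had a median of 0.22. It lay within 0.5 of 0 for 84.1% of them. Levels near 0 were common on the E2 arrays for probes of any kind, with an interquartile range over all probes of 0.43 to 0.52. For the probes that fell, the E2 mean lay within 0.5 of 0 in 67.8%. The share of all probes within 0.5 of 0 was not taken, so whether the 84.1% is particular to the probes that rose was not tested. Of the 201 probes with a control mean under -3, 193 rose and 1 fell, and their median went from -4.22 to 0.41. Of the 1337 with a control mean between -3 and -1, 1088 rose and their median went from -1.42 to 0.10. At the other end, 422 of the 513 probes with a control mean above 1 fell and 0 rose, from a median of 1.24 to 0.21. For all probes tested, the E2 mean was closer to 0 than the control mean in 64.9%. Levels of at least 1 in size were held by 2051 probes in control and 595 in E2 fish. Since control means enter both these bins and the differences, the bins are a description without a test.

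**Figure D1:**
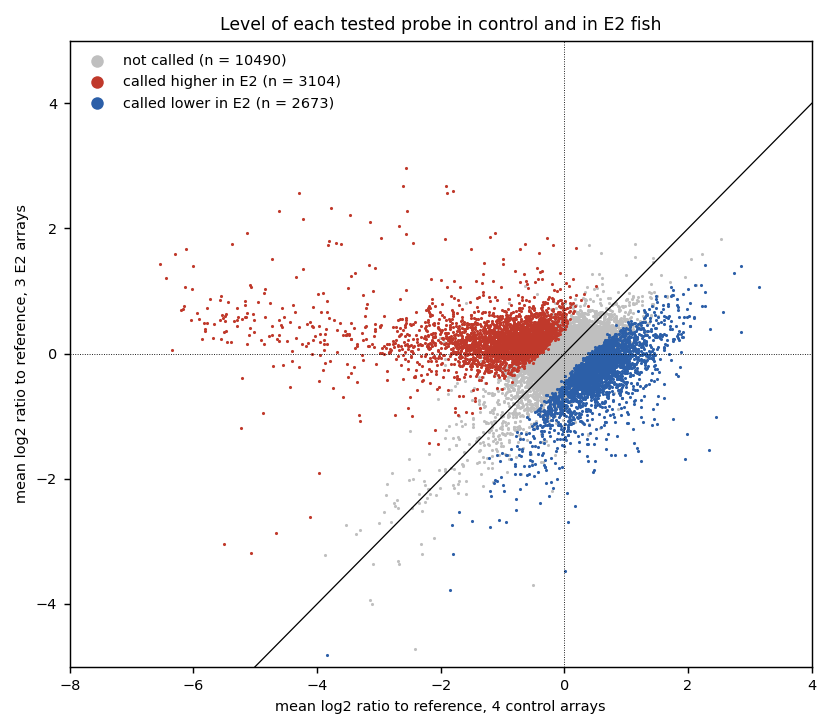
Mean log2 ratio to the reference in the 4 control arrays (x axis) and the 3 E2 arrays (y axis) of each of the 16267 probes tested, with the 3104 probes called higher in red, the 2673 called lower in blue and the others in grey. The solid line marks equal levels, and the red points form a band near 0 on the E2 axis that reaches far below 0 on the control axis.

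For each gene list below, the share of its probes called is to be read against 19.1% higher and 16.4% lower over all probes, and a share near these says nothing particular of the list. The lists hold only probes with a single gene symbol, whereas the shares over all probes also cover probes without a symbol. Exact shares over the tested probes with a single symbol were not taken. The array holds 6088 such probes, of which 1385 rose and 1030 fell, so their shares are above 19.1% and slightly above 16.4%. Yolk and egg envelope genes had the highest median difference of the 34 gene lists. All 7 tested probes rose, with a median difference of 5.78, and 6 of them are in the study's lists, which were chosen on these arrays and are no independent evidence. The zona pellucida genes encode the glycoproteins of the egg envelope. For zp3a.1 the control levels were -6.83, -4.99, -5.33 and -6.62 and the E2 levels 0.56, 0.42 and 0.95, a rise of log2 6.58 (SE 0.51, adjusted p = 4.41e-06). For zpcx they were -5.52, -4.06, -4.69 and -5.52 in control and 0.78, 0.66 and 1.04 in E2 fish, which were higher by log2 5.78 (SE 0.39, adjusted p = 1.86e-06). In each of these genes control replicates 2 and 3 were the less low, and no E2 fish came near any control. The smaller rises were those of nots, a protease of the vitellogenic liver, at log2 2.94, and zp3d.1 at 1.56.

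Of 21 probes of steroid synthesis and steroid receptors 5 rose (23.8%) and 2 fell (9.52%), shares not far from those of all probes, and 4 fell without control replicate 4. The list had a median of 0.01, which took the sign of a fall under quantile normalization (-0.13) and with arrays scaled to equal spread (-0.11). The enzyme gene cyp17a1, which makes androgen precursors, rose by log2 1.96 (SE 0.19, adjusted p = 2.21e-05), from -1.48 ± 0.32 (SD, n = 4) to 0.48 ± 0.10 (SD, n = 3). For star, whose product carries cholesterol into mitochondria for steroid synthesis, the control levels were 1.53, 0.89, 0.41 and 1.68 and the E2 levels -0.73, -0.72 and -0.83. The E2 fish lay close together below every control fish, with star at a difference of -1.89 (SE 0.28, adjusted p = 0.000375). The dehydrogenase genes hsd17b1, which activates estrone to estradiol in mammals, and hsd17b8 rose by log2 1.03 and 0.83, and 1 of 2 probes of hsd17b14 fell by 1.20. Neither aromatase gene was called, with differences of -0.08 for cyp19a1a and 0.09 for cyp19a1b, and esr2a (-0.19) and the probes of esr2b (0.01 and 0.60) did not pass either.

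Regulators of the oocyte and of the maternal transcript store rose with the envelope genes. Of 11 probes, 9 rose and 1 fell, with a median of 4.03. For cpeb1b, which controls polyadenylation of stored mRNA, the control levels were -5.20, -4.57, -4.76 and -5.52 and the E2 levels 0.43, 0.30 and 0.29. The E2 values differed by little and were far above all controls, with a rise of log2 5.35 (SE 0.27, adjusted p = 4.45e-07). The zygote arrest genes zar1l and zar1 rose by log2 4.60 (SE 0.28, adjusted p = 1.01e-06) and 4.03 (SE 0.29, adjusted p = 2.45e-06), and pou5f3, a maternal pluripotency factor, by 5.17 (SE 0.33, adjusted p = 1.23e-06). The oogenesis-related gene org rose by log2 6.44 (SE 0.68, adjusted p = 3.84e-05) and mos, the kinase that holds the meiotic arrest of the egg, by 3.99. Rises of 2.81 and 0.86 were given by rbpms2b and nobox, and nlrp16 fell by 1.29. Of these 11 probes 8 are in the study's lists.

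Among genes of the germ line of either sex, 11 of 25 probes rose (44.0%) and 2 fell (8.0%), with a median of 0.22, and 4 fell without control replicate 4 and 1 without E2 replicate 1. Those that rose include dazl, ddx4 (the vasa gene) and the tudor genes tdrd5, tdrd6a and tdrd15. Levels of dazl were -3.97, -3.26, -3.58 and -3.93 in control and -0.06, 0.07 and 0.07 in E2 fish, which were higher by log2 3.71 (SE 0.30, adjusted p = 5.05e-06). For nanos3, which is needed to maintain germ cells and is not in the study's lists, they were -2.78, -2.42, -2.66 and -2.18 in control and 0.41, -0.06 and 0.52 in E2 fish. The groups were well apart, and nanos3 rose by log2 2.80 (SE 0.23, adjusted p = 6.66e-06). The gene tdrd5, also outside those lists, rose by log2 2.33 (SE 0.28, adjusted p = 8.38e-05). Of the germ line list spata18 and spag1a fell by 0.56 and 1.34, and sycp1, of the meiotic chromosome axis, was not called (-0.17).

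By number of probes, genes of cell division gave the most rises of any list, though by share the yolk and oocyte lists were above them. Of 52 probes of mitosis and the spindle, 37 rose (71.2%, against 19.1% of all probes) and 1, cenps, fell, and the median difference was 1.28 against -0.07 over all probes. The study's lists hold 15 of the 52. For ccnb1, cyclin B of the entry into mitosis, the control levels were -5.93, -4.83, -5.04 and -6.16 and the E2 levels 0.38, 0.45 and 0.76, a rise of log2 6.02 (SE 0.35, adjusted p = 7.76e-07). The survivin genes birc5b and birc5a, of the chromosomal passenger complex, rose by log2 4.81 (SE 0.28, adjusted p = 8.38e-07) and 1.90, and cdca9, a borealin of that complex, by 3.48 (SE 0.25, adjusted p = 2.60e-06). Other members of that complex and of cytokinesis rose by less, incenp by 1.40, prc1a by 2.66, ect2 by 2.19, kif23 by 2.1 and 1.97 on separate probes and anln by 1.85. Spindle checkpoint genes bub1bb (1.36), sgo2 (1.63) and sgo1 (0.50) and kinetochore genes spc24 (1.01), nuf2 (0.95), cenpe (0.97) and cenpt (0.93) rose too.

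The cyclin gene ccna2 and the checkpoint gene bub3 rose although the study's lists do not hold them. Levels of ccna2, the cyclin A of S phase and mitosis, were -3.42, -2.93, -3.53 and -3.74 in control and -0.13, -0.59 and 0.07 in E2 fish. No E2 fish came within log2 2 of a control fish, and ccna2 rose by log2 3.19 (SE 0.24, 9.11-fold, adjusted p = 3.24e-06). The levels of bub3 were less even, at -1.74, -1.58, -0.56 and -1.32 in control and 2.26, 2.31 and -0.25 in E2 fish. E2 replicate 3 was just above the highest control while the other E2 fish were far above it, and the rise of log2 2.74 had an SE of 0.53 (adjusted p = 0.00216). Leaving out a single array in turn gave 34 to 39 probes of the mitosis list higher.

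Genes of DNA replication and repair rose more often than they fell. Of 22 replication probes, 14 rose (63.6%) and 1 fell, top2b by 0.84, which was not called with any E2 fish left out, with a median of 0.89. The ribonucleotide reductase subunits rrm2l and rrm1, which make deoxynucleotides, rose by log2 4.51 (SE 0.44, adjusted p = 2.32e-05) and 2.08 (SE 0.19, adjusted p = 1.54e-05), and tyms, thymidylate synthase, by 1.86. For gins2, of the helicase at the replication fork, the levels were -3.01, -2.15, -2.47 and -2.43 in control and 0.16, 0.16 and 0.06 in E2 fish, which were higher by log2 2.64 (SE 0.23, adjusted p = 8.67e-06). Its partners gins3 (1.59) and cdc45 (1.72), the sliding clamp pcna (1.53) and the fork protection gene tipin (1.94) rose as well, while rfc1 and timeless rose by 0.56 and 0.44. Of 15 repair probes, 8 rose (53.3%) and 1, parp3, fell, a fall absent without E2 replicate 1 or 2 or control replicate 2 or 3. It was also absent with quantile normalization, with arrays scaled to equal spread and in the values before Lowess. The checkpoint kinase gene chek2 and the recombinase gene rad51b, neither in the study's lists, rose by log2 2.03 (SE 0.26, adjusted p = 0.000127) and 1.53 (SE 0.24, adjusted p = 0.000497), and the helicase gene blm by 1.56 (SE 0.22, adjusted p = 0.000292).

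Of 77 chromatin probes 20 rose (26.0%) and 10 fell (13%), close to the shares of all probes, and the falls numbered 5 without E2 replicate 3 and 6 without E2 replicate 1. The maintenance DNA methyltransferase dnmt1, outside the study's lists, was at -3.10, -2.59, -2.88 and -3.09 in control and 0.07, -0.27 and 0.20 in E2 fish. The spread within each group was small beside the difference, with dnmt1 up by log2 2.92 (SE 0.19, 7.55-fold, adjusted p = 2.45e-06). The de novo methyltransferase genes dnmt3bb.2 and dnmt3bb.3 rose by 1.57 and 0.98. The histone variant gene h2az2a rose by log2 2.27 (SE 0.18, adjusted p = 4.41e-06), the heterochromatin genes cbx3a and cbx1a by 1.88 and 1.32, and ezh2, a polycomb methyltransferase, by 1.06. Of the high mobility group genes, hmgb3b and hmga1a rose by 1.08 and 0.76, and hmgn1b (-2.36), hmgn6 (-1.15), hmgb3a (-1.01), hmgb1b (-0.85) and hmga2 (-0.55) fell. The probes of brd3a were called in opposite directions, at 1.40 and -0.37.

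For splicing, 26 of 79 probes rose (32.9%) and 11 fell (13.9%), with a median of 0.37. The largest rise was that of rbm8a, which with magoh is part of the core of the exon junction complex, from -6.15, -5.02, -5.44 and -5.46 in control to 0.53, 0.15 and 1.01 in E2 fish (log2 6.09, SE 0.37, adjusted p = 1.01e-06). Its partner magoh rose by 1.72, and the snRNP genes snrpb (1.75), snrpc (1.47) and snrpa1 (0.91) rose too, while prpf3 (-1.25), sart3 (-1.04) and rbm24b (-0.96) fell. Of 38 probes of translation factors and tRNA synthetases 11 rose (28.9%) and 3 fell (7.89%), 6 rose in the values before Lowess, and 1 fell without E2 replicate 1 or 3. The largest rise was in eif4e1b, the oocyte form of the cap-binding factor in vertebrates, from -2.45 ± 0.14 (SD, n = 4) to 0.23 ± 0.13 (SD, n = 3), by log2 2.68 (SE 0.18, adjusted p = 1.78e-06). The gene eif4enif1, which binds that factor, rose by 1.62 (SE 0.19, adjusted p = 8.27e-05), and pabpc1b fell by 1.04.

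Of 17 ribosomal protein probes 4 rose (23.5%) and 0 fell, but that count rested on values held in common by many probes of an array. On rpl36a the value of each of the 7 arrays was the array's most repeated value, as it was on 4 arrays for rpl6 and on 3 for rps20, and with repeated values left out 1 probe rose. That probe is faub, a ubiquitin-like fusion with a ribosomal protein, at -1.97, -1.31, -1.63 and -1.67 in control and -0.06, 0.08 and 0.55 in E2 fish (log2 1.83, SE 0.24, adjusted p = 0.000186).

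In the ubiquitin system 23 of 91 probes rose (25.3%) and 9 fell (9.89%), and 5 fell without E2 replicate 3. The median of 0.08 was -0.02 without E2 replicate 1. The rises include fbxo5, the inhibitor of the anaphase-promoting complex (2.82), skp2 (2.23), anapc10 (1.88) and ube2s (1.77). Levels of fbxo5 were -2.97, -2.56, -2.85 and -2.38 in control and 0.18, 0.18 and 0.04 in E2 fish, far apart (SE 0.26, adjusted p = 1.40e-05). The proteasome subunit gene psmb12 rose by log2 1.65 (SE 0.17, adjusted p = 3.49e-05) and psmb9a by 0.84, while psme1 and psme2, the proteasome activator subunits, fell by 0.89 and 0.94. Chaperone and endoplasmic reticulum genes rose on 19 of 64 probes (29.7%) and fell on 5 (7.81%), or on 8 without control replicate 4. Among those that rose were the translocon gene sec61a1b by log2 1.66 (SE 0.16, adjusted p = 2.48e-05), p4hb (1.41), ssr2 (1.05), xbp1 (1.10) and hyou1 (0.99). The 2 probes of dnajb1b rose by 2.2 and 2.03, and hsp90aa1.1 and hsp70.3 fell by 1.49 and 1.25.

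Several of the largest rises outside the study's lists belong to none of the lists above. The largest was zgc:173544, an uncharacterized gene, at -5.43, -4.38, -4.62 and -5.20 in control and 0.61, 0.25 and -0.19 in E2 fish, which were higher by log2 5.13 (SE 0.34, 35.1-fold, adjusted p = 1.50e-06). With quantile normalization this rise was log2 3.46. The homeobox gene nanog, a pluripotency factor deposited in the egg, was at -3.90, -3.51, -4.01 and -2.55 in control and -0.32, -0.71 and -0.07 in E2 fish and rose by log2 3.13 (SE 0.35, adjusted p = 5.55e-05). For gdf3, known as vg1 in this species and a maternal inducer of mesoderm, the levels were -4.38, -3.76, -3.94 and -5.08 in control and -0.19, -0.29 and -0.15 in E2 fish. The E2 fish differed by little, and the rise was log2 4.08 (SE 0.34, 16.9-fold, adjusted p = 6.54e-06). The probes of sox19b, a maternal SOX factor, rose by 3.30 and 2.86, the latter on a probe outside the lists. The glycosyltransferase-like gene gbgt1l4 rose by log2 3.94 (SE 0.43, adjusted p = 4.98e-05) and si:ch211-198m1.1 by 3.16 (SE 0.25, adjusted p = 5.30e-06).

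In praf2, per3, npr1b and tmem37 the control fish spread widely, with an SD of 1.30 to 1.50. The clock gene per3 stood at -3.21, -2.99, -0.12 and -1.44 in control and 2.36, 2.64 and 0.49 in E2 fish. Control replicate 3 and E2 replicate 3 were nearest each other, and the rise of log2 3.77 had an SE of 0.70 (adjusted p = 0.00161). For praf2, a membrane protein of vesicle transport, the levels were -3.54, -3.08 and -0.74 in control replicates 1, 2 and 4, with no value for replicate 3, and 1.32, 3.11 and 0.88 in E2 fish (log2 4.22, SE 0.71, adjusted p = 0.00117). The natriuretic peptide receptor gene npr1b rose by log2 3.08 (SE 0.65, adjusted p = 0.00362) and tmem37 by 2.94 (SE 0.71, adjusted p = 0.00759).

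**Figure D2:**
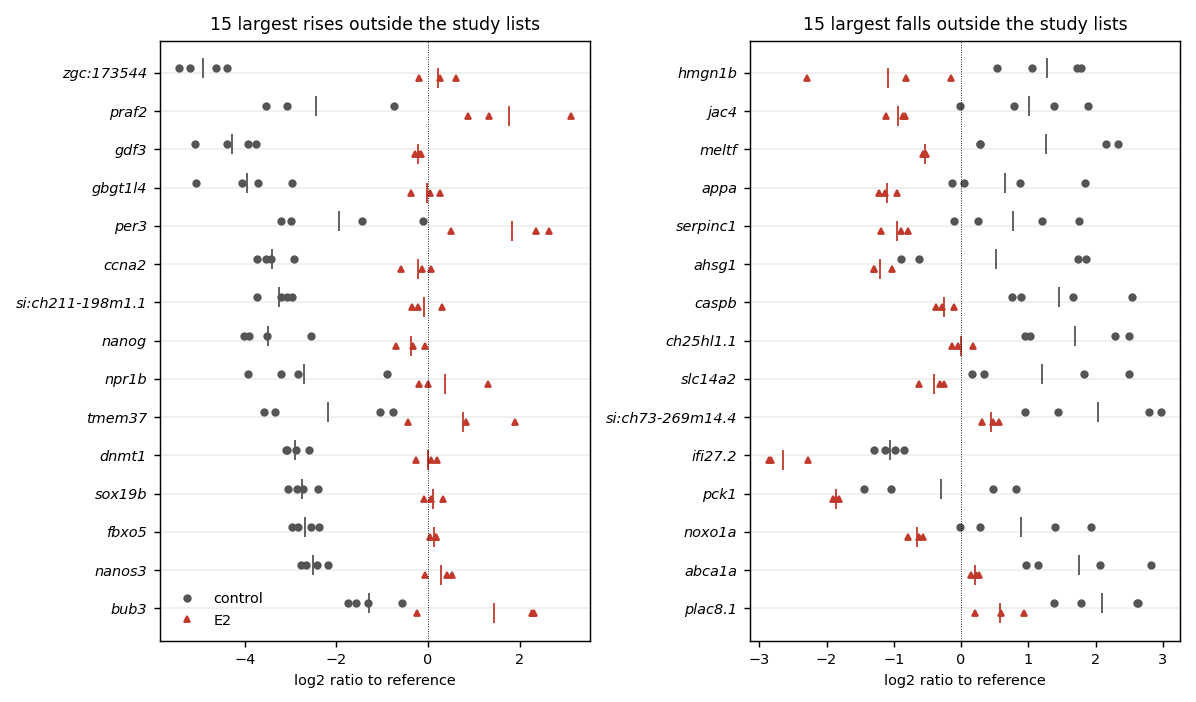
Log2 ratio to the reference on each of the 4 control arrays (grey circles) and 3 E2 arrays (red triangles) for the 15 genes with the largest rise (left) and the 15 with the largest fall (right) among called probes outside the study's lists, with bars at the group means. No E2 point overlaps a control point by the rule that chose the genes, and in the right panel control replicates 2 and 3 lie on the same side of 1 and 4 in all 15 genes.

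More of the plasma protein and other liver genes fell than rose. Of 23 probes, 11 fell (47.8%, against 16.4% of all probes) and 1 rose, with a median of -0.89, and the median was -0.59 without control replicate 3 and -1.62 with quantile normalization. The largest fall of all named genes was that of hpxb, hemopexin, which binds free heme in plasma. Its levels were 2.11, 1.98, 2.56 and 2.71 in control and -1.58, -1.51 and -1.50 in E2 fish, a difference of -3.87 (SE 0.32, 14.7-fold, adjusted p = 5.90e-06). For hp, haptoglobin, the hemoglobin-binding protein, they were 0.92, 1.88, 1.78 and 1.22 in control and -1.23, -0.83 and -1.08 in E2 fish, and hp fell by 2.50 (SE 0.23, adjusted p = 1.53e-05). In both genes every E2 fish was below every control fish by more than log2 1.

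The other falls of the list are of carriers, binding proteins and clotting factors. The insulin-like growth factor binding protein igfbp1a was at 0.32, 0.26, 0.28 and 0.96 in control and -1.91, -1.88 and -1.90 in E2 fish and fell by 2.35 (SE 0.18, adjusted p = 3.55e-06). The copper carrier ceruloplasmin, cp, fell by 2.2, the liver fatty acid binding protein fabp10a by 1.93, the kininogen kng1 by 1.81 (SE 0.19, adjusted p = 4.48e-05), the iron carrier tfa by 1.23 and the clotting factor f7 by 0.65. Antithrombin, serpinc1, was at -0.11, 1.21, 1.76 and 0.25 in control and -0.90, -0.79 and -1.19 in E2 fish, with control replicates 2 and 3 well above 1 and 4, and fell by 1.74 (SE 0.37, adjusted p = 0.00376). The fetuin gene ahsg1 had the same division, at -0.63, 1.74, 1.85 and -0.90 in control and -1.29, -1.03 and -1.30 in E2 fish. It fell by 1.72 (SE 0.60, adjusted p = 0.0445), which did not pass in 8 of 22 alternative settings, among them each that left out an E2 fish, and the largest adjusted p was 0.118. The member that rose was rbp4, the retinol carrier, by log2 0.75. In this list 0 rose without E2 replicate 2 or 3, without control replicate 1 or 2, in the values before Lowess or with repeated values left out.

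**Figure D3:**
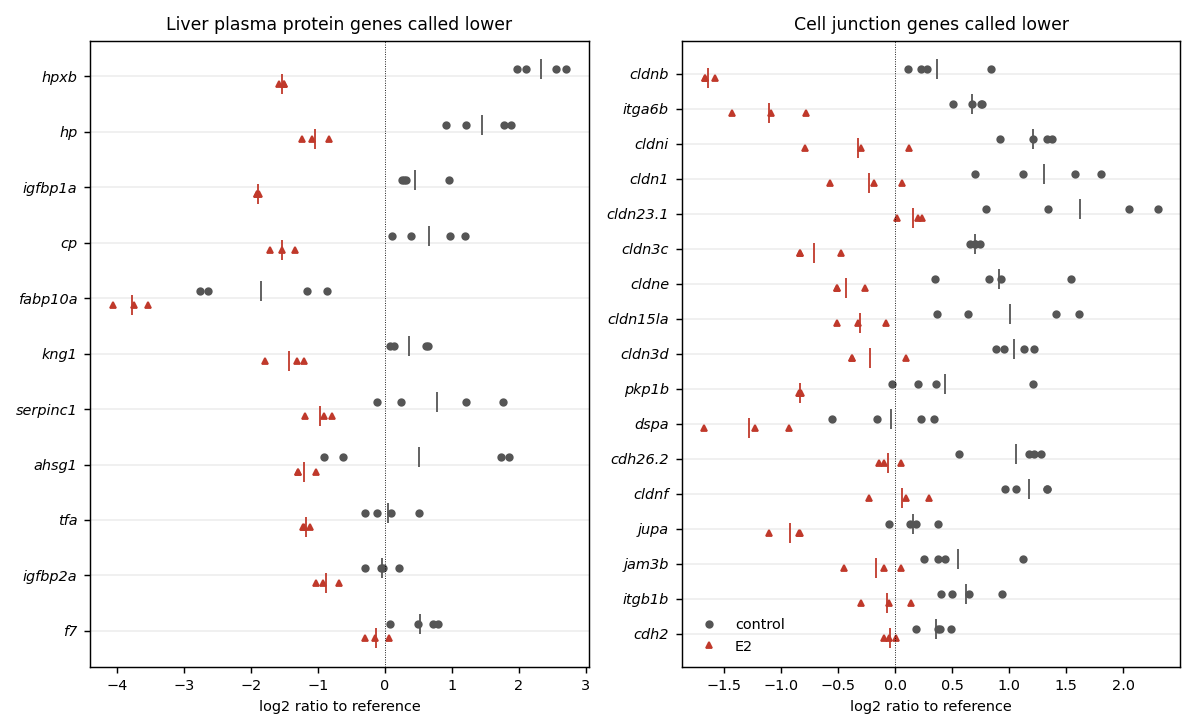
Log2 ratio to the reference on each control array (grey circles) and E2 array (red triangles) for the genes called lower of the liver plasma protein list (left) and of the cell junction list (right), 1 probe a gene, with bars at the group means. In the left panel hpxb shows the widest gap, and serpinc1, ahsg1 and fabp10a show 2 control fish above the other 2.

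More of the metabolic enzymes fell than rose. For carbohydrate and amino acid metabolism 22 of 47 probes fell (46.8%) and 5 rose (10.6%), with a median of -0.50, and without E2 replicate 3 these were 13 and 3. The arginine metabolism genes arg2 and ass1 gave the largest falls. For arg2, a mitochondrial arginase, the levels were 1.37, 0.94, 1.41 and 2.04 in control and -0.95, -0.75 and -0.96 in E2 fish, and arg2 fell by 2.32 (SE 0.22, adjusted p = 1.87e-05). For ass1 the control fish lay within 1.01 to 1.16 and the E2 fish at -1.04, -0.22 and -0.64, and ass1 fell by 1.72 (SE 0.18, adjusted p = 3.91e-05). The sulfur amino acid genes mat1a (-1.57) and cth (-1.49), the aminotransferase gpt (-0.98 and -1.11), the glutamate dehydrogenases glud1a (-0.59) and glud1b (-0.68) and the glycolytic genes pfkpa (-1.06), aldoab (-0.76) and ldha (-0.67) fell too. Rises were given by tpi1a (log2 2.43, SE 0.23, adjusted p = 1.96e-05), gpt2 (1.76), pfkfb2a (0.72), mdh1ab (0.67) and gapdh (0.54), so that paralogs of an enzyme went opposite ways in gpt and gpt2 and in mdh1aa (-0.86) and mdh1ab.

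The rate-limiting gene of gluconeogenesis, pck1, was at 0.47, -1.44, -1.05 and 0.82 in control and -1.86, -1.81 and -1.91 in E2 fish. Here control replicates 1 and 4 were the higher ones, and pck1 fell by 1.56 (SE 0.46, adjusted p = 0.0209), which did not pass without control replicate 1 or with any E2 fish left out, where the largest adjusted p was 0.0663.

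In lipid metabolism 13 of 51 probes fell (25.5%) and 4 rose (7.84%), with a median of -0.25. Among those that fell were acaca, the acetyl-CoA carboxylase of fatty acid synthesis, which fell by 1.18 (SE 0.20, adjusted p = 0.00094), elovl6 (-0.79), acsl1a (-0.88) and cpt1ab, which brings fatty acids into mitochondria and fell by 1.24 (SE 0.14, adjusted p = 8.81e-05). Levels of cpt1ab were 0.93, 1.08, 1.09 and 1.25 in control and -0.15, -0.16 and -0.14 in E2 fish, with little spread in either group. The receptors pparab, pparg and ppardb fell by 0.80, 0.79 and 0.69 and the regulator srebf2 by 0.58. The endothelial lipase gene lipg rose by log2 2.54 (SE 0.21, adjusted p = 7.42e-06) and the desaturase fads2 by 2.46.

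Of 41 probes of oxidation and conjugation enzymes 9 fell (22.0%) and 5 rose (12.2%), and 14 fell with quantile normalization or with arrays scaled to equal spread. The retinoic acid hydroxylase cyp26b1 fell by 1.22 (SE 0.19, adjusted p = 0.00048), the dioxin receptor ahr2 by 1.02 and the sulfotransferase sult2st1 by 1.09, while cyp2k6, a cytochrome P450 outside the study's lists, rose by log2 2.57 (SE 0.29, adjusted p = 6.33e-05). In antioxidant defence 6 of 23 probes fell (26.1%) and 4 rose (17.4%), but 3 fell without E2 replicate 2 and 7 rose without control replicate 4. The rises were txnrd3 (1.53), sephs1 (1.29), catalase, cat (1.19), and sod1 (0.76), and both probes of nqo1 (-1.39 and -1.36) and the plasma selenoprotein selenop2 (-1.40) fell. Beside antioxidant genes the list holds mao, a monoamine oxidase gene, which fell too (-1.10).

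Of 99 probes of solute carriers, which bring nutrients and ions across membranes, 19 rose (19.2%, the share of all probes being 19.1%) and 25 fell (25.3%). The largest rises were those of the lactate carrier slc16a3b (log2 3.06, SE 0.26, adjusted p = 9.28e-06), the zinc carrier slc39a13 (2.90, SE 0.24, adjusted p = 5.74e-06), slc35f2 (2.86) and slc22a23 (2.53). The largest falls were those of the sugar carrier slc2a5 (-2.62, SE 0.62, adjusted p = 0.0071), the urea carrier slc14a2 (-1.60), slc16a6b (-1.51) and slc38a4 (-1.46). Of 17 respiratory chain probes 2 rose (11.8%) and 2 fell (11.8%), with 1 rise without any 1 of the E2 fish or control replicate 1 or 2, 0 falls without E2 replicate 3 and 4 without control replicate 4. The rises were those of ndufaf4 (0.81) and ndufaf8 (0.87), and ndufaf8 kept its call in 16 of 22 alternative settings, with a largest adjusted p of 0.0797 without E2 replicate 2. The falls were those of cox10 (-0.73) and ndufs1 (-0.48). They kept their calls in 17 and 16 of 22 alternative settings, with a largest adjusted p of 0.218 and 0.131.

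Of 71 cell junction probes 18 fell (25.4%) and 8 rose (11.3%), and the claudins, which seal tight junctions, were called in both directions. The claudins cldnd and cldng rose by log2 6.27 (SE 0.35, adjusted p = 7.16e-07) and 5.83 (SE 0.29, adjusted p = 4.06e-07). Levels of cldnd were -6.23, -5.01, -5.32 and -6.58 in control and 0.57, 0.35 and 0.52 in E2 fish. Claudins cldnb (-2.0), cldni (-1.53), cldn1 (-1.53), cldn23.1 (-1.47), cldn3c (-1.41), cldne (-1.34), cldn15la (-1.31), cldn3d (-1.27) and cldnf (-1.11) fell. Desmosome genes dspa (-1.25), pkp1b (-1.26 and -0.58) and jupa (-1.08), which hold epithelial cells together, fell too, as did itga6b (-1.77), the integrin of hemidesmosomes. The gap junction genes gjc4a.1 and gjc4b rose by log2 2.06 (SE 0.19, adjusted p = 1.32e-05) and 1.54.

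Matrix and keratin genes had 13 falls (24.5%) and 0 rises on 53 probes, with a median of -0.38. The count was 7 without E2 replicate 1 and 24 with arrays scaled to equal spread or quantile normalized. The protease inhibitor timp2b was at 1.41, 1.25, 1.56 and 1.76 in control and -0.25, -0.20 and -0.29 in E2 fish and fell by 1.74 (SE 0.17, adjusted p = 1.96e-05). The membrane proteases mmp14b and mmp14a fell by 1.47 (SE 0.28, adjusted p = 0.00174) and 1.07 (SE 0.23, adjusted p = 0.00545), and the second probe of mmp14a gave -0.45. Among the others that fell were the keratins krt4 (-1.09), krt5 (-0.75) and krt8 (-0.72) and the hemidesmosomal collagen col17a1a (-1.22).

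Muscle genes fell on 16 of 40 probes (40.0%) and rose on 2 (5.0%), with a median of -0.41, and rose on 4 without control replicate 1 or 4. They rose on 1 without E2 replicate 1 or 2, in the values before Lowess or with repeated values left out. The falls include genes of the heart: myl7, a cardiac light chain, at 0.42, 0.51, 0.72 and 1.18 in control and -0.72, -0.55 and -0.67 in E2 fish (-1.36, SE 0.21, adjusted p = 0.000457), myh7 (-1.17), mybpc3 (-1.17) and tnnt2a (-0.94). Other genes that fell include myl10, which fell by 1.45 (SE 0.17, adjusted p = 7.06e-05), actn3b, an actinin of fast skeletal muscle that fell by 1.18 (SE 0.18, adjusted p = 0.000526), and tnni2b.2 (-1.23), with the intermediate filament gene desma (-1.40). The titin gene ttn.2 fell by 1.23 on 1 probe and was not called on the others (-0.12 and -0.54). Creatine kinase ckma, an abundant fast muscle transcript, rose by log2 0.44, and the probes of myl9b were called in opposite directions (1.31 and -0.88). Among the 9 muscle markers given above, 1 probe, that of ckma, rose and 0 fell.

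In the exocrine pancreas and digestion list 4 of 11 probes fell (36.4%) and 0 rose, and 7 fell with quantile normalization. Those that fell were the carboxypeptidase cpa5 by 1.60 (SE 0.17, adjusted p = 4.43e-05), the chymotrypsinogen ctrb.3 by 1.41 (SE 0.23, adjusted p = 0.000726) and the islet hormones gcga and sst2 by 1.06 and 0.98. For sst2 the highest E2 fish (0.82) was above the lowest control fish (0.80), and its call was lost in 4 of 22 alternative settings, those without E2 replicate 2 or 3 and those with quantile normalization or equal spread (adjusted p up to 0.138). In the red blood cell list 2 of 11 fell (18.2%), tal1 by 0.87 and rhag by 0.94, with 1 fall without E2 replicate 3 and 4 without control replicate 2 or 3. The call of tal1 was lost without E2 replicate 3, with quantile normalization and with equal spread (adjusted p up to 0.0789). In that list the heme synthesis gene alas2 (-0.93, adjusted p = 0.0758) and the carbonic anhydrase cahz (-0.85, adjusted p = 0.0506) did not pass, but alas2 was called lower without control replicate 2 or 3, and cahz in 7 of 22 alternative settings, these included. For alas2 control replicates 1 and 4 were at 1.71 and 2.02 and replicates 2 and 3 at 0.42 and 0.44, with the E2 fish at 0.17 to 0.28.

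Photoreceptor and lens genes fell on 10 of 26 probes (38.5%) and rose on 1 (3.85%), 5 fell without E2 replicate 3, and 0 rose with any E2 fish or control replicate 2 or 3 left out. The falls include cone and rod genes, opn1mw2 (-1.0), opn1sw2 (-0.88), opn1lw1 (-0.86), gnat2 (-0.79) and gnat1 (-0.74), and the lens crystallin crybb1 (-1.12). The other probe of gnat2 gave 0.23. Genes of neurons and glia were called on 13 of 63 probes, 7 higher (11.1%) and 6 lower (9.52%), both below the shares of all probes, with 3 lower without E2 replicate 1 and 2 without E2 replicate 2. The growth cone gene gap43 rose by log2 4.47 (SE 0.42, adjusted p = 1.67e-05), from -2.96, -2.76, -1.27 and -3.24 to 1.89, 2.44 and 1.42, and stmn1a, which regulates microtubules also in dividing cells, by 3.41 (SE 0.36, adjusted p = 3.54e-05).

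Immune genes fell on 23 of 63 probes (36.5%) and rose on 8 (12.7%), with a median of -0.41, and 14 fell without E2 replicate 1 and 5 rose with quantile normalization. Myeloid genes were among those that fell. Of the 6 immune cell markers tested, 3 fell (mpx, ptprc and cd74b) and 0 rose, while lyz, cd74a and b2m were not called. The neutrophil peroxidase mpx, outside the study's lists, was at 1.71, 1.75, 2.01 and 1.88 in control and 0.31, 0.83 and 0.92 in E2 fish and fell by 1.15 (SE 0.17, adjusted p = 0.000392), but had an adjusted p of 0.115 with arrays scaled to equal spread. The macrophage genes mpeg1.1 (-1.20) and csf1ra (-0.64), the myeloid factors cebpa (-1.15) and spi1b (-0.66), the common leukocyte gene ptprc (-0.98), the class II antigen genes mhc2daa (-1.12) and cd74b (-1.09) and the pentraxin ptx3a (-1.34) fell as well. Interferon-linked genes stat2 (-0.97) and irf9 (-0.87) fell while irf1a rose by log2 1.56 (SE 0.22, adjusted p = 0.000239). The class I genes mhc1uda (3.54 and 1.72) and mhc1ufa (2.90) rose, on probes that may share sequence within this family.

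Immediate early genes, the fast transcripts of stress and growth signals, rose on 12 of 50 probes (24.0%) and fell on 16 (32.0%), and 6 rose without E2 replicate 2 and 7 with quantile normalization or equal spread. The antiproliferative genes btg2 and btg3 rose by log2 2.45 (SE 0.18, adjusted p = 3.35e-06) and 2.00 (SE 0.18, adjusted p = 1.39e-05). The probes of fosl2 both fell (-1.99 and -1.42), as did the cytokine feedback genes socs3a (-1.34) and socs3b (-1.29), while those of jun were called in opposite directions (2.35 and -1.18).

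Of the developmental transcription factors 43 of 232 probes fell (18.5%, near the 16.4% of all probes) and 20 rose (8.62%, below 19.1%), and 26 to 28 fell with any E2 fish left out. Large rises were those of tbxta (brachyury) by log2 7.40 (SE 0.66, adjusted p = 1.22e-05), pax9 by 5.58 (SE 0.24, adjusted p = 3.18e-07) and pou5f3 by 5.17. The SOX genes sox19b, by 3.30 and 2.86 on separate probes, and sox11b, by 3.18 (SE 0.19, adjusted p = 9.53e-07), rose too. Levels of pax9 were -4.34, -4.20, -3.89 and -4.46 in control and 1.66, 1.15 and 1.26 in E2 fish. Among those that fell were foxa3 (-1.39), tfap2a (-1.28), gata3 (-1.21) and dlx3b (-1.15 and -0.99).

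Nuclear receptors and their coregulators were called on 17 of 76 probes, 9 higher (11.8%) and 8 lower (10.5%), both below the shares of all probes, against 14 and 17 without control replicate 4. The receptor gene nr2f1b rose by log2 2.31 (SE 0.22, adjusted p = 1.73e-05), and the corepressor bcor fell by 2.81 (SE 0.48, adjusted p = 0.00127), with its controls at 2.43, 2.13, 2.15 and 0.31. The larger rises in this list, those of rxrba, med13b, nr3c1 and nr5a2, were each missing on another probe of the gene, as given below.

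Growth factors and their receptors fell on 29 of 129 probes (22.5%) and rose on 14 (10.9%), with 17 falls without E2 replicate 3 and 9 rises without E2 replicate 1. Among those that fell were the growth hormone receptor ghrb (-2.08), the prolactin receptor prlra (-1.36) and igf2a (-1.18). The epidermal growth factor receptor ligand epgn was at 0.85, 1.27, 1.48 and 1.15 in control and -1.70, -1.51 and -1.47 in E2 fish and fell by 2.75 (SE 0.20, 6.71-fold, adjusted p = 2.52e-06). The bone morphogenetic protein receptor bmpr1ba rose by log2 1.65 (SE 0.18, adjusted p = 4.75e-05), and bmpr1aa (1.14), acvr2ba (0.93) and the Nodal coreceptor gene tdgf1 rose too.

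Of 37 Notch probes 7 rose (18.9%) and 8 fell (21.6%), near the shares of all probes, and 4, 5 and 3 fell without E2 replicates 1, 2 and 3. A probe of the receptor notch1a rose by log2 0.98 and 1 of notch2 fell by 0.88, while their other probes were not called. The ligand gene dlc fell by 0.76 (SE 0.15, adjusted p = 0.00195) and the Hairy-related repressor her9 by 0.95 (SE 0.14, adjusted p = 0.000347). Vesicle traffic and small GTPase genes were called on 46 of 140 probes, 25 higher (17.9%) and 21 lower (15%), near the shares of all probes, with vps9d1, outside the study's lists, at log2 2.60 (SE 0.27, adjusted p = 3.82e-05) as the largest rise and rasgrp4 (-1.55) as the largest fall.

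**Figure D4:**
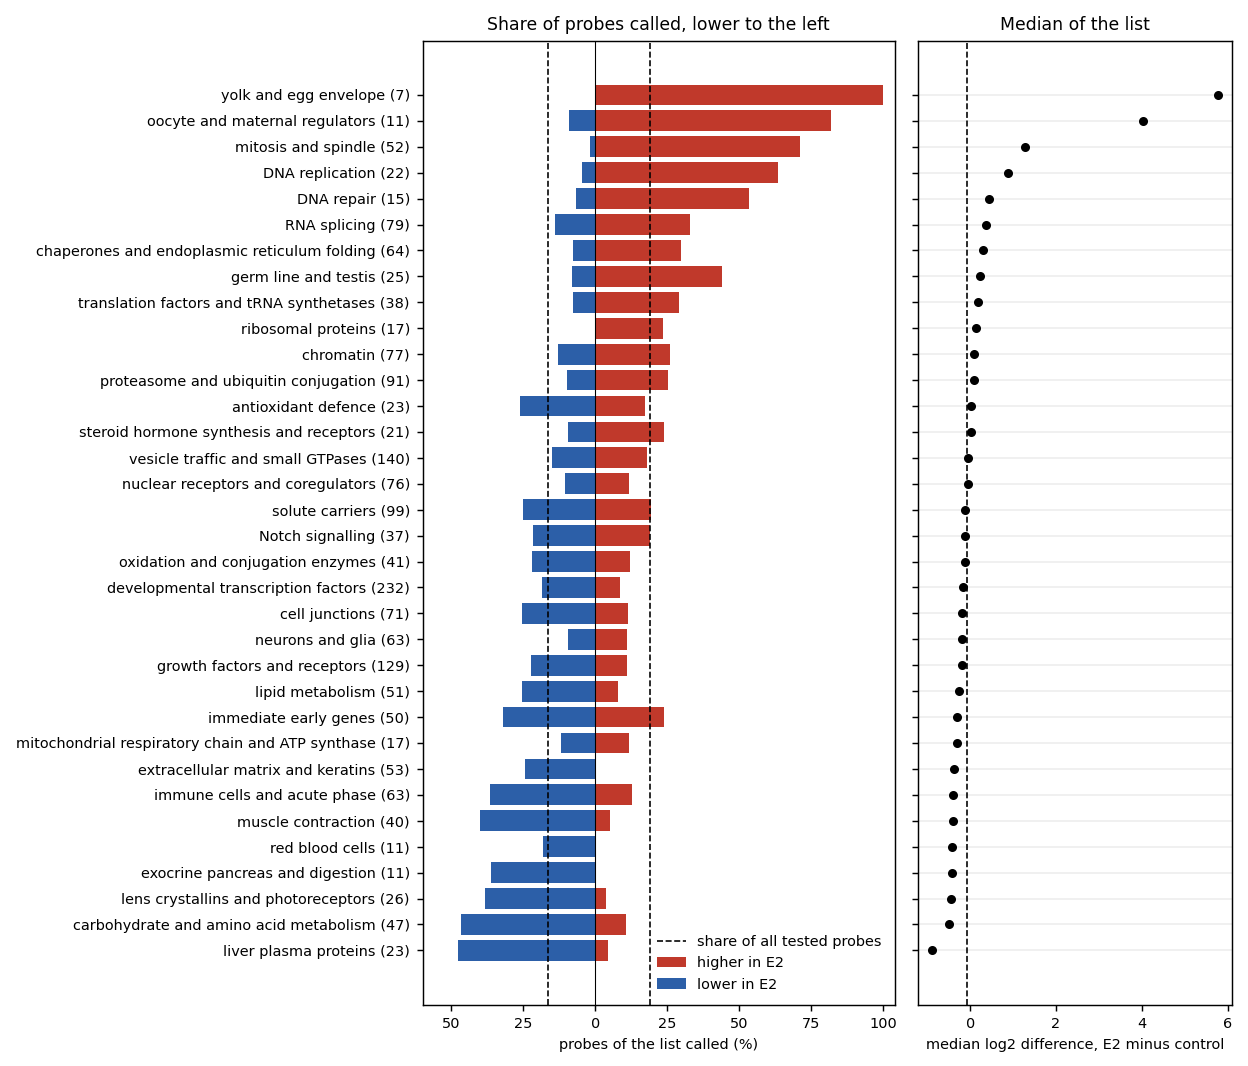
Share of the tested probes of each of the 34 gene lists that were called higher (red, to the right) or lower (blue, to the left) in E2 fish, and the median log2 difference of the list (right panel), with the number of probes in brackets and dashed lines at the values of all probes tested (19.1% higher, 16.4% lower, median -0.07). Yolk and egg envelope, oocyte, mitosis and DNA replication lists lie farthest to the right and liver plasma proteins farthest to the left in the median.

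**Figure D5:**
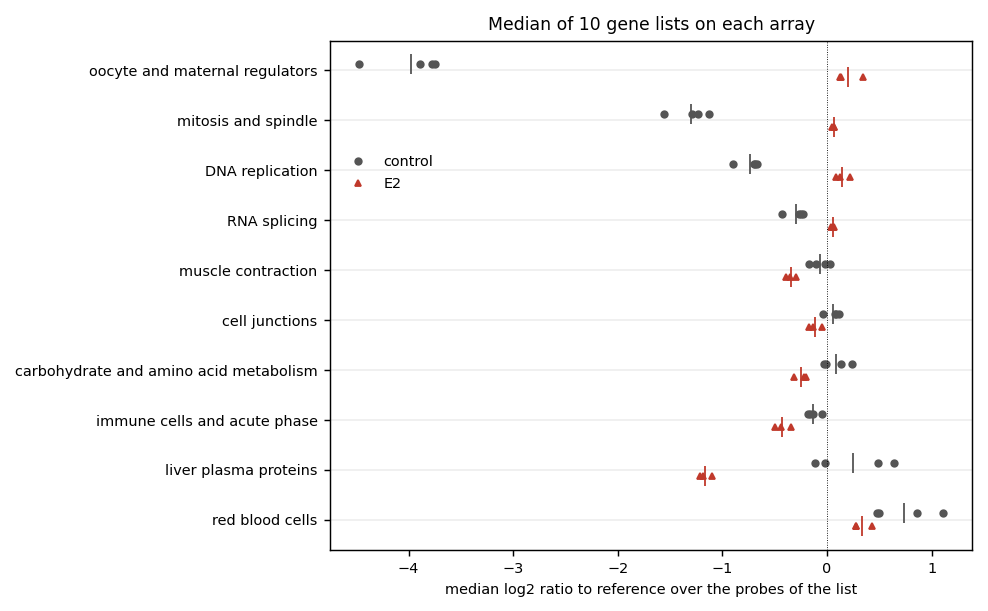
Median log2 ratio to the reference over the probes of 10 gene lists on each control array (grey circles) and each E2 array (red triangles), with bars at the mean over arrays. In oocyte genes the control medians lie between -4.47 and -3.75 and the E2 medians between 0.12 and 0.34, whereas in liver plasma proteins the E2 medians of -1.21 to -1.10 lie below control medians of -0.12 to 0.64.

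The largest falls outside the study's lists share a pattern among the control fish, which some falls within those lists had too. The chromatin gene hmgn1b led them, at 1.05, 1.78, 1.73 and 0.53 in control and -2.29, -0.15 and -0.82 in E2 fish (-2.36, SE 0.47, adjusted p = 0.00249). The lectin gene jac4, at -0.01, 1.38, 1.89 and 0.79 in control and -0.86, -0.83 and -1.12 in E2 fish, fell by 1.95 (SE 0.37, adjusted p = 0.00184). The transferrin relative meltf, at 0.28, 2.15, 2.34 and 0.28 in control and -0.56, -0.52 and -0.55 in E2 fish, fell by 1.81 (SE 0.47, adjusted p = 0.0111). In these 3 genes control replicates 2 and 3 stood above 1 and 4.

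In others the order was turned. The inflammatory caspase caspb was at 1.66, 0.76, 0.89 and 2.54 in control and -0.28, -0.37 and -0.11 in E2 fish and fell by 1.71 (SE 0.35, adjusted p = 0.00301), with a second probe at -1.72. The cholesterol exporter abca1a was at 2.07, 1.15, 0.97 and 2.83 in control and 0.26, 0.14 and 0.22 in E2 fish and fell by 1.55 (SE 0.37, adjusted p = 0.00702). With the same order of controls, the differences were -1.76 for appa (the amyloid precursor gene, with another probe at -0.72), -1.69 for ch25hl1.1 (a cholesterol hydroxylase), -1.60 for slc14a2 and -1.56 for noxo1a (an organizer of an NADPH oxidase). That of slc14a2 did not pass in 4 of 22 alternative settings, those without control replicate 1 or without any 1 of the E2 fish.

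Over the 15 genes, control replicates 2 and 3 were both above 1 and 4 in 7 and both below them in 8. These genes were chosen by the size of the fall and by absence from the study's lists. Whether that choice bears on the pattern was not tested. Over all 15586 tested probes with 4 control values the same held for 17.9% and 17.9%, and over the 2623 such probes called lower for 15.7% and 28.5%. The division was not confined to genes outside the study's lists. Among genes within them, control replicates 2 and 3 were both above 1 and 4 in epgn, slc2a5, hp, kng1 and fabp10a. They were both below them in star and, narrowly, in igfbp1a. Neither held for hpxb, bcor and arg2. How often the division occurs within the lists was not counted. The E2 fish lay within log2 1 of each other in 14 of the 15 genes. For the interferon-induced gene ifi27.2 the control fish lay between -1.29 and -0.85 and the E2 fish at -2.85, -2.28 and -2.83, and it fell by 1.59 (SE 0.22, adjusted p = 0.000278).

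Genes with several probes give a measure of how far a symbol can be trusted on this array. Of the 496 genes with more than 1 tested probe, actb2 aside, 211 had no probe called, 105 had all probes called in the same direction, 170 had some called and others not, and 10 had probes called in both directions. The disagreement reached the largest changes: of the 15 such genes with a called rise of at least log2 3, 7 had another probe that rose and 8 had none. The gene rxrba, a retinoid X receptor, rose by log2 7.06 on 1 probe (SE 0.51, adjusted p = 2.55e-06) and gave -0.29 on the other. The spindle gene aspm gave 6.61 and 0.01, the integrin itga5 5.69 and -0.08, the mediator gene med13b 5.57 and 0.45, the glucocorticoid receptor nr3c1 4.94, -0.17 and -0.58, nr5a2 4.46, -0.06 and -0.30, vwa1 6.21 and -0.74, and si:ch73-106k19.5 6.89 and -0.46. Several probes rose together in the cases of nasp, a histone chaperone (4.41 and 4.26), zgc:111868 (6.88 and 6.51), zgc:175136 (6.45 and 5.56), sox19b (3.30 and 2.86), zgc:112980 (3.79 and 2.14) and mhc1uda (3.54 and 1.72). For reps1 a probe at log2 6.37 stood beside a much smaller rise of 0.46 and a probe that was not called (0.12). In nr3c1 and si:ch73-106k19.5, 2 arrays of the probe that rose held the array's most repeated value. What the disagreeing probes hybridize to was not tested.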

How the data were processed

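RNA of individual whole fish was hybridized by the authors to spotted arrays of 16416 oligonucleotides and scanned, the local background was subtracted and Lowess normalization applied. The deposited values are log2 ratios of fish (Cy3) to reference (Cy5) after these steps, and a second deposited table holds log2 ratios of the same spots before Lowess. The direction of the ratio is not stated in the files and was taken from the study's lists of up- and down-regulated genes. Software versions of these steps are not given in the sources used here.

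Probes with at least 2 values in each group were compared with limma 3.58.1 in R 4.3.3, in a fit to all 10 arrays with a mean per treatment (lmFit and eBayes), and p-values were adjusted by Benjamini-Hochberg. The number of arrays limits the precision. Replicates were separate fish. Probe names came from the platform annotation: 6088 probes had 1 symbol, 75 several and 10253 none, and 6019 of the 6088 were found in RefSeq. No genome coordinates or sequences were used.

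The members and lists were chosen with earlier results of these data known, and 67 entries that matched a list by name only were removed after values had been seen. Named genes were the 15 largest rises and 15 largest falls outside the study's lists with groups not overlapping, the 10 largest in each direction regardless, the 4 smallest adjusted p-values of each list, esr1 and vitellogenin, with other list members where a statement on the list needed them. Not every gene so chosen is described above. Those left out include trim35-29 (log2 7.06), uevld (6.86), si:ch1073-340i21.3 (-2.56) and si:ch1073-126c3.2 (-2.31). The alternatives were other normalizations, filters, array weights, a robust prior, a fit to the 2 groups alone, a 2-group SAM, a replicate block, stricter thresholds and leaving out each array. A check of whether same-numbered fish deviated together is given with the alternatives. A motif search in promoters was planned and not run.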

Additional observations from a re-analysis of the deposited data

Results flagged for a closer look

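In 8 of 168 probes tested, 1 control fish lay far from the other 3 by Dixon's criterion, which chance alone meets in about 5% of groups. The count is near what chance gives, so the flags say nothing particular of these genes. Control replicate 4 was that fish in 5 genes. Its level was 0.31 for bcor (others 2.13 to 2.43), 0.96 for igfbp1a (others 0.26 to 0.32), 0.46 for actn3b (others 0.01 to 0.06), 0.98 for the amino acid carrier slc6a7 (others 0.39 to 0.48) and -1.64 for jun (others -2.31 to -2.30). Control replicate 1 stood apart at -0.29 for rps20 (others -0.06 to -0.04) and at -0.60 for eif4enif1 (others -1.04 to -0.98). The value for rps20 is the most repeated value of that array. Control replicate 3 stood apart at -1.99 for the sorting nexin snx12 (others -1.75 to -1.73).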

How the results depend on the processing

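Of the 170 named probes, 168 were called, and 154 kept call and direction in every setting run for them (up to 22). None reversed. The 5777 calls (3104 higher, 2673 lower) became 3598 at an adjusted p under 0.01 (2195 higher, 1403 lower). With the threshold kept at 0.05 and a change of at least 2-fold asked for as well, they became 2439 (1649 higher, 790 lower). Array weights gave 4048 higher and 4312 lower. With repeated values left out 3063 were higher and 2660 lower. Rises were then 6 in place of 7 for yolk and egg envelope and 4 in place of 5 for carbohydrate and amino acid metabolism. They were 1 in place of 2 for muscle, 8 in place of 9 for nuclear receptors and 10 in place of 11 for translation factors. Leaving out 1 array gave 2416 to 3629 higher and 1776 to 3511 lower, with 1776 without E2 replicate 3 and 3511 without control replicate 4, and 4240 to 7140 in all. The share of higher calls was 53.7% and stayed within 10 percentage points under the scaling alternatives. With a replicate block 3424 probes rose and 3228 fell (6652 in all). Deviations of same-numbered fish correlated across probes at 0.099, 0.0278 and -0.1445, and those of differently numbered fish at -0.148 to 0.1365. Each deviation was taken from the mean of its own group over few arrays, so this check cannot decide whether the numbers pair the fish. Of the list medians under other settings 378 stayed close to the main value and 64 moved. The cause of these changes was not tested. Spot signals over background were not used, and 3 E2 fish and 4 control fish limit what small differences can show.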
